A study of Arabidopsis thaliana with 8 samples.

Results

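The 8 loci described here, AT2G13160, AT2G10640, AT2G12300, AT2G12240, AT1G33130, AT2G12980, AT2G13870 and AT2G04770, are annotated pseudogenes of Arabidopsis thaliana. They were chosen on their measured values: each rose by over 7 log2 units above background in ddm1-2 or in the double mutant ddm1-2 rdr6-15, and each was as high without RDR6 as with it. Each locus has 1 probe set on the Affymetrix ATH1 array, so that the members are 8 of 22746 probe sets tested and 8 of 989 probe sets for annotated pseudogenes. The arrays measured total RNA of inflorescences, flower stages 9 to 12, in 4 genotypes with 2 arrays labelled as biological replicates each. These were ddm1-2 rdr6-15, ddm1-2, rdr6-15 and Col-0, the wild type. Tissue was pooled for each sample, with n = 3 given in the labels, and 6 ug of RNA went onto an array. Values are log2 signals summarised by the authors with RMA.

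DDM1 is a chromatin remodeller of the SNF2 family that lets DNA methyltransferases reach compact chromatin. Transposons and their remnants, most dense around the centromeres, are methylated and silent where it works, and many are transcribed where it is lost. RDR6, one of the plant's RNA-dependent RNA polymerases, copies cleaved or aberrant transcripts into double-stranded RNA, which Dicer enzymes cut into secondary small interfering RNAs. Transposon transcripts released in ddm1 mutants are a known source of such RNAs. The annotation gives the 8 loci no name or function beyond the class of pseudogene, a class in which the RefSeq annotation of this genome also places transposon genes.

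Background was taken from 27 probe sets of bacterial (Bacillus) control transcripts. The highest of their mean log2 signals, 3.56, is called the control limit here. The other control means lay between 2.27 and 2.76. Pairs among 7 of the arrays correlated with r of 0.944 or more over probe sets, whereas rdr6-15 replicate 1 reached 0.879 at most with any other array. That array stands apart, and results of comparisons with rdr6-15 are also given without it. Of 16 late pollen genes listed as tissue markers, 6 had a probe set. Their summed log2 signal was 23.9 and 16.7 in the double mutant, 24.0 and 19.5 in ddm1-2, 17.4 and 29.7 in rdr6-15 and 34.0 and 37.7 in Col-0. Of the 6, 2 and 6 were at or below the control limit in the double mutant, 2 and 4 in ddm1-2, 5 and 1 in rdr6-15 and 1 and 0 in Col-0. The 69 plastid-encoded probe sets had medians of 5.75 and 5.40 in the double mutant, 6.01 and 5.98 in ddm1-2, 7.43 and 5.63 in rdr6-15 and 5.31 and 5.42 in Col-0. Whether these marker differences come from tissue make-up, and what part they have in the values below, was not tested. Fewer cells that transcribe a locus and less RNA per cell cannot be told apart on these arrays.

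AT2G13160 had 11.98 and 11.87 in the double mutant, 11.64 and 12.02 in ddm1-2, 3.34 and 2.66 in rdr6-15 and 2.77 and 2.82 in Col-0. All 4 arrays without DDM1 lay far above all 4 arrays with it, and the arrays of the double mutant fell inside the range of the ddm1-2 arrays. The measured difference of ddm1-2 minus Col-0 was 9.03 (SE 0.26) and that of the double minus rdr6-15 was 8.92. Because the arrays of rdr6-15 and Col-0 lay below the control limit, the measured difference rests on dim values that may hold little or no signal. A lower limit was therefore taken from the controls. Set against the brightest control probe set of each Col-0 array, the rise in ddm1-2 was at least 276-fold, and in the double mutant against rdr6-15 it was at least 299-fold (361-fold without rdr6-15 replicate 1).

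AT2G10640 had 11.37 and 11.47 in the double mutant, 11.18 and 11.51 in ddm1-2, 3.21 and 2.84 in rdr6-15 and 2.60 and 2.79 in Col-0. AT2G12300 had 11.42 and 11.36 in the double mutant, 11.23 and 11.54 in ddm1-2, 2.83 and 2.90 in rdr6-15 and 3.06 and 2.46 in Col-0. Both loci repeated the pattern of AT2G13160, with the arrays of the double mutant between those of ddm1-2. In ddm1-2 against Col-0 the rise was at least 197-fold for AT2G10640 and at least 203-fold for AT2G12300. In the double mutant against rdr6-15 it was at least 211-fold for AT2G10640 and at least 207-fold for AT2G12300, and without rdr6-15 replicate 1 at least 255-fold and 249.6-fold. AT2G12240 had 11.35 and 11.33 in the double mutant, 11.25 and 11.23 in ddm1-2, 3.60 and 2.86 in rdr6-15 and 2.66 and 3.63 in Col-0. Its replicates were the closest of all members in the ddm1-2 genotype and among the widest at control level, where rdr6-15 replicate 1 and Col-0 replicate 2 lay just above the limit. Its rise was at least 184-fold in ddm1-2 and at least 199.6-fold in the double mutant (241-fold without rdr6-15 replicate 1), each against the genotype that differs only in DDM1.

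AT1G33130, the member on chromosome 1, had 10.33 and 10.91 in the double mutant, 10.32 and 10.79 in ddm1-2, 3.56 and 3.07 in rdr6-15 and 2.85 and 3.05 in Col-0. AT2G13870 had 10.72 and 10.63 in the double mutant, 10.32 and 10.59 in ddm1-2, 3.86 and 3.26 in rdr6-15 and 2.89 and 2.97 in Col-0. In AT2G13870 the arrays of the double mutant were above those of ddm1-2, and the arrays of rdr6-15 above those of Col-0. The rises in ddm1-2 against Col-0 were at least 114-fold for AT1G33130 and at least 106-fold for AT2G13870.

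AT2G04770 had 10.25 and 10.26 in the double mutant, 9.66 and 10.05 in ddm1-2, 2.81 and 2.64 in rdr6-15 and 2.33 and 2.59 in Col-0. AT2G12980 had 8.57 and 9.96 in the double mutant, 9.57 and 9.92 in ddm1-2, 2.27 and 2.14 in rdr6-15 and 2.15 and 2.14 in Col-0. AT2G12980 was the least even member: its replicates in the double mutant differed by 1.39, the widest gap between replicates of any member in any genotype, and replicate 1 of the double mutant was its lowest array without DDM1. The rises in ddm1-2 against Col-0 were at least 70.2-fold for AT2G04770 and at least 65.0-fold for AT2G12980. In the double mutant against rdr6-15 that of AT2G12980 was at least 47.3-fold, and without rdr6-15 replicate 1 at least 57.1-fold.

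**Figure D1:**
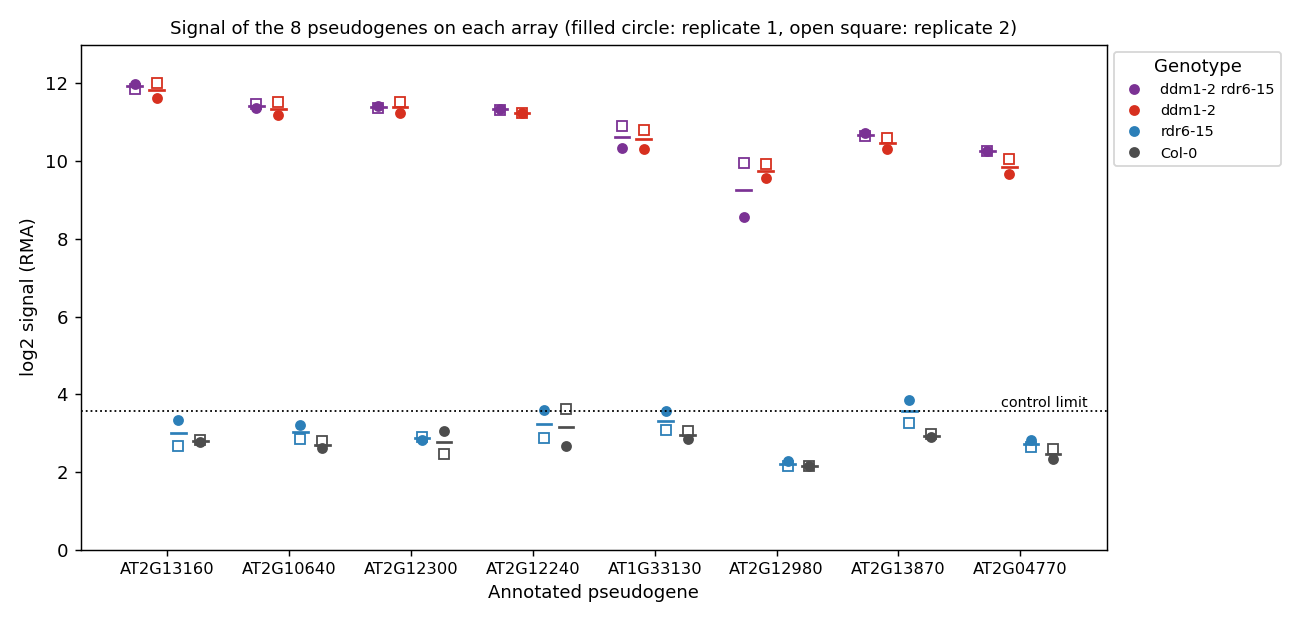
Log2 signal (y axis) of the 8 pseudogenes (x axis) on each array, with circles for replicate 1, squares for replicate 2, a short bar for the mean of the 2 and a dotted line at the control limit of 3.56. Arrays of ddm1-2 rdr6-15 and ddm1-2 lie between 8.57 and 12.02, and arrays of rdr6-15 and Col-0 between 2.14 and 3.86.

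These differences chose the members and are given as a description. Over the 8 members the difference of ddm1-2 minus Col-0 ran from 7.39 to 9.03 with a median of 7.85, beside a median of -0.012 over all probe sets. The difference of the double mutant minus rdr6-15 ran from 7.05 to 8.92 with a median of 7.82. Without rdr6-15 replicate 1 the range of the double mutant minus rdr6-15 was 7.12 to 9.27, with a median of 8.05. Measured against the brightest control probe set of each array in place of the members' own dim values, the rise in ddm1-2 over Col-0 was at least 6.02 to 8.11 log2 units. On that stricter scale 4 of the 8 members, AT2G13160, AT2G10640, AT2G12300 and AT2G12240, stayed above 7.

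Just inside the threshold of 7, taking the larger of the differences of ddm1-2 and of the double mutant from Col-0, lay AT2G12980 with 7.59, AT1G33130 with 7.67 and AT2G13870 with 7.75. Just outside lay the annotated pseudogenes AT3G31955 with 6.70, AT4G05640 with 6.49 and AT3G47320 with 6.49. AT3G30396, an annotated pseudogene with a difference of 7.42, is not among the members. Its Col-0 arrays, at 4.50 and 4.08, were above the control limit. The protein-coding locus AT1G58025 was the 1 probe set of another class above 7, with 7.98.

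The loss of RDR6 where DDM1 is already lost left the members where they were, which is again part of how they were chosen. The difference of the double mutant minus ddm1-2 ran from -0.48 in AT2G12980 (SE 0.41) to 0.40 in AT2G04770 (SE 0.20), with a median of 0.086. It was above 0 in 7 members and below 0 in AT2G12980. In AT2G04770, AT2G13870 and AT2G12240 both arrays of the double mutant were above both ddm1-2 arrays, by small margins. The share of all probe sets with this order is not given here, so nothing is read from it. In ddm1-2 itself, replicate 2 exceeded replicate 1 in 7 of the 8 members, with a median gap of 0.34 beside 0.029 over all probe sets. That gap is larger than the median difference on loss of RDR6.

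The 6 annotated pseudogenes with the largest falls among those called lower in the double mutant than in ddm1-2 show the other pattern. A call is an adjusted p under 0.05 by limma with Benjamini-Hochberg adjustment over all probe sets, and 0.0528% of probe sets were called lower in this comparison. These calls depend on the arrays: with the replicate as block or without 1 Col-0 array AT3G30610 alone of the 6 stayed called, and without either ddm1-2 array or replicate 2 of the double mutant 0 did. AT2G15140 had 4.25 and 2.75 in the double mutant, against 8.61 and 8.85 in ddm1-2, a difference of -5.23 (SE 0.45). AT3G47260 had 5.73 and 4.40 in the double mutant, against 9.57 and 9.88 in ddm1-2, a difference of -4.66 (SE 0.41). AT3G32900, AT4G03790, AT3G30610 and AT2G13890 had differences of -4.91, -4.13, -3.65 and -3.49. Each of the 6 lost most of its ddm1-2 signal, while every member kept its signal within 0.48 log2 units. Like the members, 5 of the 6 have probe sets that related sequences share, and AT3G30610 has its own. Both sets were chosen on this comparison, so the gap between them is a description.

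**Figure D2:**
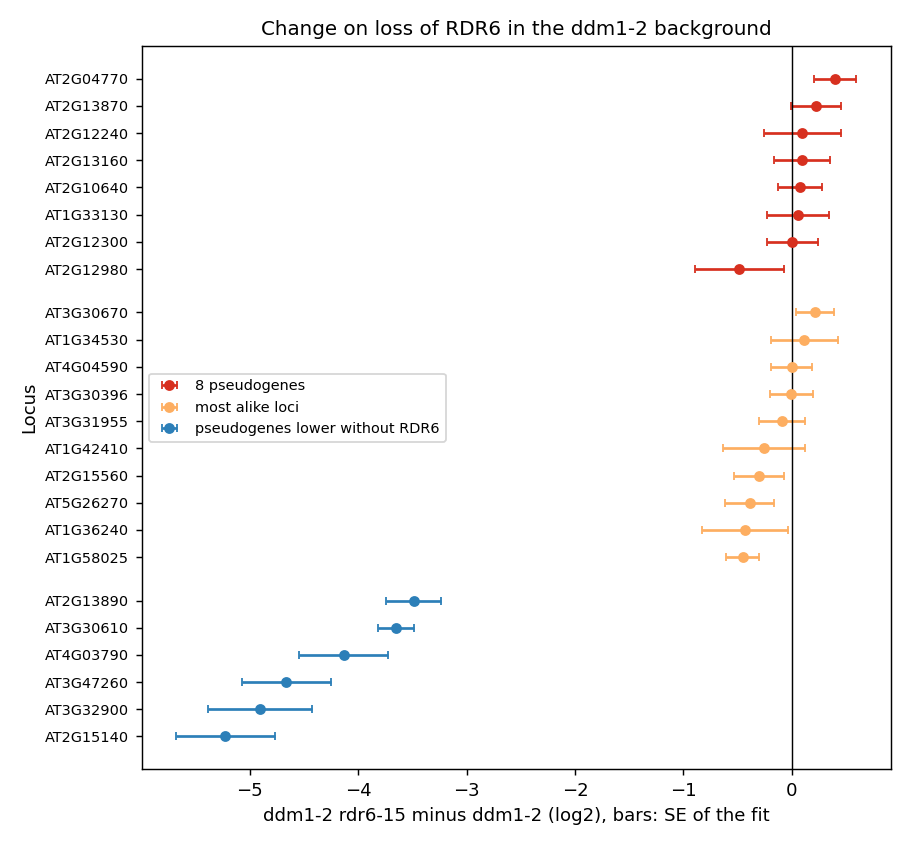
Difference of ddm1-2 rdr6-15 minus ddm1-2 (x axis, log2, bars for the SE of the fit) for the 8 members, the 10 loci most like them and 6 pseudogenes called lower (y axis, by locus). Members lie between -0.48 and 0.40, and the 6 others between -5.23 and -3.49.

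The class as a whole spanned both patterns. Of 71 annotated pseudogene probe sets called higher in ddm1-2 than in Col-0, 8 are the members. The other 63, which include the 6 pseudogenes set beside the members, had a median difference of -1.03 in the double mutant minus ddm1-2. Their range was from -5.23, the value of AT2G15140, to 0.57, above the highest member. Of the 63, 18 stayed within 0.5 log2 units and 32 were at least 1 lower. The ddm1-2 arrays enter both the choice of the 71 and this difference, so the counts describe the class only.

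With DDM1 intact, the effect of losing RDR6 was read from rdr6-15 against Col-0, the comparison the choice of members used least, although it required a background level in the silent genotypes. Since the choice held both genotypes near background, 0 calls were largely fixed by it. In limma 0 of the 8 members were called, with 0.00879% of all probe sets called and 1 member, AT2G13870, at an unadjusted p under 0.05, and nothing is read from this count. AT2G13870 had a difference of 0.62 (SE 0.23, adjusted p = 0.456 by limma). All 8 differences were above 0, from 0.059 to 0.62, with a median of 0.23 beside 0.024 over all probe sets. On rdr6-15 replicate 1, the array that stands apart, 7 of the 8 members were brighter than on replicate 2, and the median of replicate 2 minus replicate 1 over the 8 was -0.43. Without that array the differences ran from -0.28 to 0.32, and 0 members were called. With it as the lone rdr6-15 array 1 of the 8, AT2G13870, was called (difference 0.92, adjusted p = 0.00974 by limma), in a fit that called 23.8% of all probe sets. The brightest control probe set had 3.97 on rdr6-15 replicate 1, above the 3.86 of AT2G13870, the brightest member on that array. The median of the 27 controls on that array was 2.52. Whether a difference below the brightest control is transcript signal cannot be told from these arrays.

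**Figure D3:**
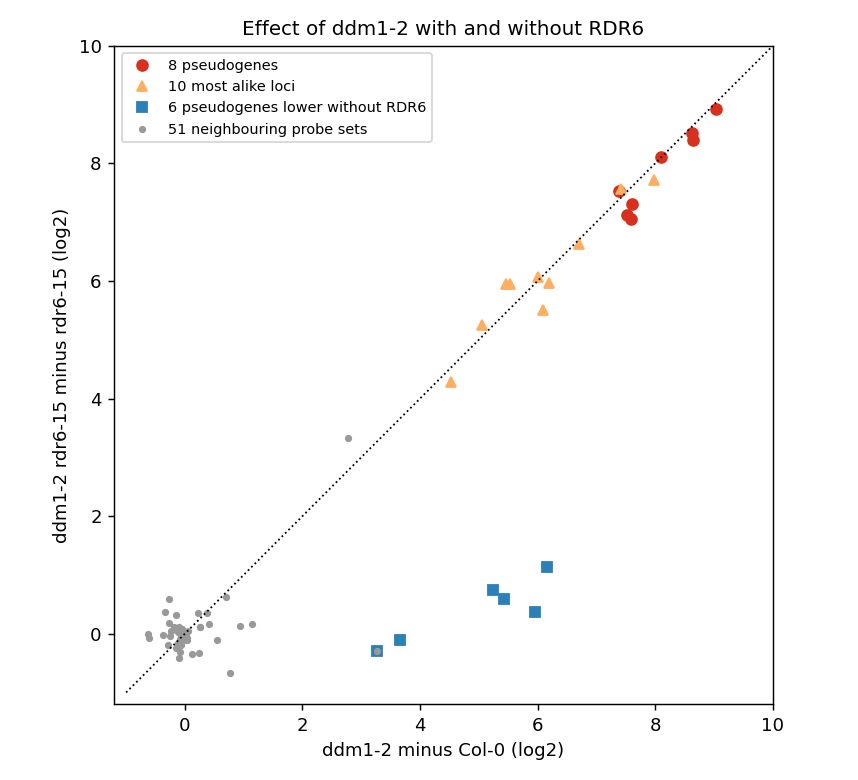
Difference made by ddm1-2 with RDR6 (x axis, ddm1-2 minus Col-0, log2) and without it (y axis, ddm1-2 rdr6-15 minus rdr6-15, log2) for the 8 members, 10 most alike loci, 6 pseudogenes called lower without RDR6 and 51 neighbouring probe sets, with a dotted line where the 2 are equal. Members lie at 7.39 to 9.03 and 7.05 to 8.92, near the line, and the 6 lie below it.

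By Pearson correlation over the 8 arrays, a measure set mostly by the split between arrays with and without DDM1, the members were alike among themselves (r of 0.991 to 0.9997 over 28 pairs). Of 13428 other probe sets with 1 locus, the 10 with the highest correlation to the mean member profile had r from 0.990 to 0.998. They were the annotated pseudogenes AT3G31955, AT3G30670, AT3G30396, AT4G04590, AT1G34530 and AT1G42410 and the protein-coding loci AT5G26270, AT1G58025, AT1G36240 and AT2G15560. AT3G31955 had 8.73 and 9.05 in the double mutant, 8.78 and 9.19 in ddm1-2, 2.12 and 2.40 in rdr6-15 and 2.30 and 2.27 in Col-0. AT4G04590, with a probe set of its own, had 7.77 and 7.96 in the double mutant, 7.71 and 8.02 in ddm1-2, 2.66 and 2.55 in rdr6-15 and 2.94 and 2.68 in Col-0. In AT4G04590 the arrays of the double mutant lay between those of ddm1-2, and in AT3G31955 they overlapped them. AT1G34530 had 7.89 and 8.82 in the double mutant, 8.02 and 8.45 in ddm1-2, 2.21 and 2.34 in rdr6-15 and 2.23 and 2.22 in Col-0. AT5G26270, AT1G58025, AT1G36240 and AT2G15560 had differences of -0.39, -0.45, -0.43 and -0.30 in the double mutant minus ddm1-2. In AT1G58025 both arrays of the double mutant, 10.59 and 10.58, were below both ddm1-2 arrays, 11.08 and 10.99. Of the 10 loci, 3 have shared probe sets and 7 have their own. They were picked for their likeness to the members, so their pattern is a description.

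The members share features that the choice did not use. All 8 have probe sets that related sequences share: 6 of the type _x_at, where some probes match other transcripts, and 2 of the type _s_at, where all probes match a group of transcripts. Such types make up 19.3% of annotated pseudogene probe sets and 4.66% of all probe sets. They are not particular to the members: 131 probe sets were called in ddm1-2 against Col-0, and 40 when both types were left out of the fit. With shared probes the signal of a member cannot be assigned to 1 locus, and how many separate transcripts the 8 stand for was not tested. The second shared feature is position. Of the 8 loci, 7 lie on chromosome 2, which carries 30.1% of annotated pseudogene probe sets and 16.4% of all probe sets with 1 locus.

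In the gene order of the TAIR10.1 annotation, used for order only because the array files name no genome build, the members of chromosome 2 were spread unevenly. AT2G12240 and AT2G12300 are separated by 5 annotated genes, and AT2G12980 and AT2G13160 by 29. AT2G13160 and AT2G13870 are separated by 93, AT2G12300 and AT2G12980 by 98, AT2G10640 and AT2G12240 by 199 and AT2G04770 and AT2G10640 by 756. Within 10 genes on either side of a member lie 145 other loci, of which 59.3% are annotated pseudogenes, against 12.7% of all annotated genes.

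The loci annotated around the members were not used in the choice. Their values describe the annotated neighbourhood only, since the shared probe sets do not tie a member's signal to its annotated place. Of the 145 loci, 51 probe sets could be measured, 28 for annotated pseudogenes and 23 for protein-coding genes. Of the 51, 38 were at or below the control limit in all 4 genotypes. In ddm1-2 against Col-0, 2 of the 51 were called higher and 0 lower by limma. At an unadjusted p under 0.05 were 6 of the 51, beside 2076 of all 22746 probe sets. All 6 were annotated pseudogenes and higher in ddm1-2. In that class, members left out, 26 of 158 probe sets between the members on chromosome 2 and 139 of 823 elsewhere passed this threshold, in either direction. Nothing particular to the neighbours is read from the 6. Among the 6, those not called were AT2G10660, AT2G12320, AT2G13020 and AT2G13000, with differences of 1.14, 0.94, 0.70 and 0.54. The background in this comparison was 0.404% of all probe sets called higher and 0.171% called lower, and 7.18% of annotated pseudogenes called higher. Both calls were annotated pseudogenes, which is 7.14% of the 28 and near the background of the class. The median difference of the 51 was -0.055, beside -0.012 over all probe sets, and those not called lay between -0.62 and 1.14. Of the 23 protein-coding neighbours, 0 were called in ddm1-2 against Col-0, in the double mutant against rdr6-15 or in the double mutant against ddm1-2. Such calls were rare among 12319 protein-coding probe sets outside the stretch of chromosome 2 between the members. There, 14 were called higher and 16 lower in the first comparison, 5 and 0 in the second and 0 and 1 in the third. Nothing is read from the 0 calls of the 23.

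The neighbours called are each the next gene after a member. AT2G12250, next to AT2G12240, had 7.58 and 7.68 in the double mutant, 6.84 and 7.28 in ddm1-2, 4.84 and 3.75 in rdr6-15 and 4.47 and 4.11 in Col-0. It was higher by 2.77 in ddm1-2 than in Col-0 (SE 0.36, adjusted p = 0.0303 by limma) and by 3.34 in the double mutant than in rdr6-15 (SE 0.36, adjusted p = 0.031 by limma). This was the 1 neighbour of 51 called higher in the double mutant against rdr6-15, where 0.163% of all probe sets and 2.93% of annotated pseudogenes were called higher. Like the members it kept its signal without RDR6, with a difference of 0.57 in the double mutant minus ddm1-2 that did not pass (adjusted p = 0.9999 by limma). Neither call held with the replicate as block (adjusted p = 0.0755 in ddm1-2 against Col-0 and 0.109 in the double mutant against rdr6-15, by limma) or with quantile normalization (0.0561 and 0.0549). With only the genotypes compared in the fit, the call in the double mutant against rdr6-15 was lost. Without rdr6-15 replicate 1 that difference was 3.88 (adjusted p = 0.000111 by limma). Leaving out any 1 array of the double mutant, ddm1-2 or Col-0 also ended both of its calls, with adjusted p of 0.0987 to 0.367 in ddm1-2 against Col-0.

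AT2G13890, next to AT2G13870, had 2.66 and 2.40 in the double mutant, 5.67 and 6.36 in ddm1-2, 2.92 and 2.71 in rdr6-15 and 2.81 and 2.68 in Col-0. It was on in ddm1-2 only among the 4 genotypes and at control level in the other 3. It was higher by a measured difference of 3.27 in ddm1-2 than in Col-0 (SE 0.25, adjusted p = 0.00322 by limma). In the double mutant it was lower than in ddm1-2 by a difference of -3.49 (SE 0.25, adjusted p = 0.024 by limma), the 1 neighbour of 51 called lower there. That call was lost with the replicate as block (adjusted p = 0.102 by limma) and without any 1 array of the double mutant, ddm1-2 or Col-0 (0.0646 to 0.216). Its call in ddm1-2 against Col-0 was lost without either Col-0 array (adjusted p = 0.0731 and 0.0821 by limma). The member beside it, AT2G13870, had a difference of 0.22 (SE 0.23) in the same comparison. The interaction of AT2G13890, the difference between the effects of ddm1-2 with and without RDR6, was -3.56 and did not pass (adjusted p = 0.106 by limma). Its probe set, like that of AT2G12250, is of the shared type _x_at.

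Of 7 directly adjoining genes that could be measured, the other 5 were at control level in every genotype. AT2G10630 and AT2G10650, annotated pseudogenes on either side of AT2G10640, had means of 2.36 and 2.08 in the double mutant, 2.21 and 2.16 in ddm1-2 and 2.39 and 2.21 in Col-0. AT2G10660, 2 genes from AT2G10640, had 3.71 and 4.37 in ddm1-2 against 3.15 and 2.65 in Col-0 without passing (difference 1.14, adjusted p = 0.254 by limma). AT2G12990 beside AT2G12980 had a difference of 0.027 in ddm1-2 minus Col-0, AT2G13150 beside AT2G13160 one of -0.10 and AT2G04760 beside AT2G04770 one of -0.11, all at control level. The 4 neighbours measured around AT2G13160, the member with the largest rise, were all at control level in every genotype. Around AT2G04770, where 16 probe sets were measured, differences of ddm1-2 minus Col-0 ran from -0.28 to 0.76. Around AT1G33130 they ran from -0.60 to 0.37 over 5 probe sets.

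**Figure D4:**
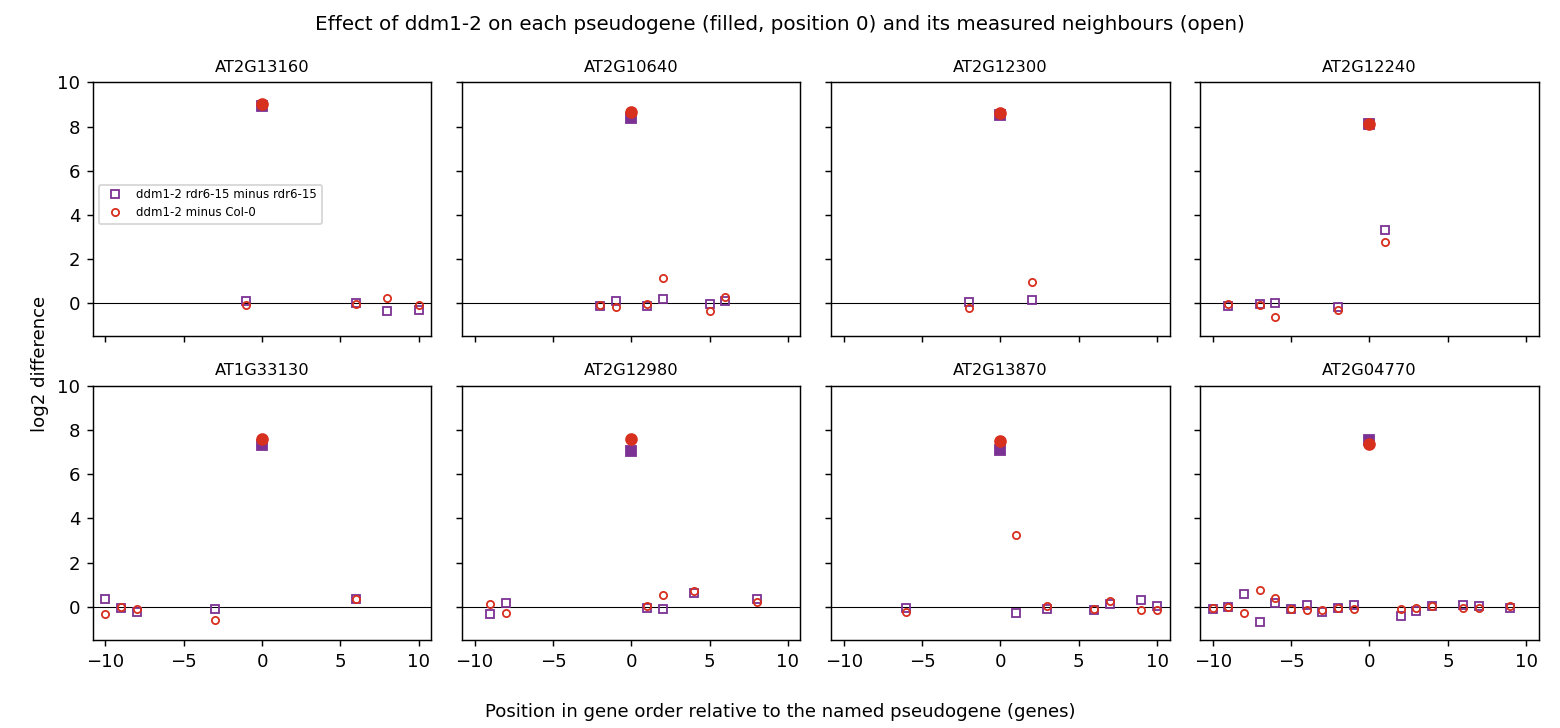
Log2 difference (y axis) of ddm1-2 rdr6-15 minus rdr6-15 (squares) and ddm1-2 minus Col-0 (circles) for each of the 8 members, filled at position 0, and for neighbours with a probe set, open, by their place in gene order (x axis, genes). AT2G12250 beside AT2G12240 has 3.34 and 2.77, AT2G13890 beside AT2G13870 has -0.29 and 3.27, and the other neighbours lie between -0.68 and 1.14.

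Over the wider stretch of chromosome 2 between AT2G04770 and AT2G13870, 1180 other loci lie between the members. In ddm1-2 against Col-0, 8 of 158 annotated pseudogene probe sets there were called higher (5.06%), beside 55 of 823 elsewhere, members left out (6.68%). In the double mutant against rdr6-15 the counts were 3 of 158 (1.90%) and 18 of 823 (2.19%), and without rdr6-15 replicate 1 they were 6 (3.80%) and 34 (4.13%). Of 124 protein-coding probe sets in the stretch, 0 were called in either comparison by limma, with 6 and 4 at an unadjusted p under 0.05. Of the 124, 78 were at or below the control limit in every genotype. Elsewhere, 14 of 12319 protein-coding probe sets were called higher (0.114%) and 16 lower in ddm1-2 against Col-0. In the double mutant against rdr6-15, 5 of them were called higher (0.0406%) and 0 lower. An unadjusted p under 0.05 was reached by 1035 and 505 of the 12319. Nothing is read from the 0 calls of the 124. The shares inside and outside the stretch were not tested against each other. AT2G06180, which the rule for naming did not pick and which is given with its values known, with a probe set of its own, had 6.75 and 7.05 in the double mutant, 6.42 and 6.82 in ddm1-2, 3.55 and 2.73 in rdr6-15 and 3.80 and 3.23 in Col-0. It was called in both comparisons (differences of 3.11 and 3.76, adjusted p = 0.0128 and 0.00967 by limma), and without rdr6-15 replicate 1 the second difference was 4.17. AT2G06430, named in the same way, had 5.89 and 4.08 in the double mutant, against 9.36 and 9.72 in ddm1-2, a difference that did not pass (-4.55, adjusted p = 0.109 by limma).

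Of 38 genes listed for DNA methylation and small RNA silencing, the annotation matched 4 probe sets, 3 for DME, a DNA demethylase, and 1 for AGO7, the Argonaute that carries miR390 to start TAS3 small RNAs. In each comparison 0 of the 4 were called by limma in either direction, where the background was 0.163% of probe sets in the double mutant against rdr6-15, 0.312% in the double mutant against Col-0, 0.0572% in the double mutant against ddm1-2, 0.576% in ddm1-2 against Col-0 and 0.00879% in rdr6-15 against Col-0, and AGO7 in ddm1-2 against Col-0 was the 1 case at an unadjusted p under 0.05. AGO7 had 3.83 and 4.15 in ddm1-2, against 3.34 and 3.47 in Col-0 (difference 0.59, adjusted p = 0.522 by limma). The DME probe sets differed by -0.25 to 0.18 in that comparison. Levels of DDM1 and RDR6 themselves were not analysed here.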

How the data were processed

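The deposited log2 signals per probe set were summarised by the authors with RMA, per the submitters' processing notes; no source used here gives its version or options. No scaling was added. Of 22810 probe sets, 64 controls were left out. Genes came from the platform annotation and, by Entrez ID, the RefSeq table of TAIR10.1 (13436 probe sets with 1 locus). All 8 arrays entered 1 limma model with a coefficient for each genotype (limma 3.58.1, R 4.3.3, Python 3.11.15; lmFit and eBayes with 4 residual and 2.82 prior degrees of freedom), with two-sided p-values adjusted by Benjamini-Hochberg over 22746 probe sets and a threshold of 0.05. The script was tested on simulated data. SE is that of the fit.

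Members, lists and the comparisons were chosen with earlier results of these data known. No test is given for contrasts that chose the members. An "at least" fold sets the bright mean against, per dim array, the higher of the brightest control and the member's own signal. Named by rule were the members, the 10 most alike loci, called neighbours within 10 genes, list genes, 3 loci on each side of the threshold and 6 pseudogenes called lower in the double mutant. Probe and gene sequences were not used here. Replicate numbers were checked for pairing: deviations from the genotype means correlated over 0.1 in 2 of 6 pairs of genotypes. These were the double mutant and ddm1-2 (0.42) and rdr6-15 and Col-0 (0.15). The main fit has no block. In the double mutant against ddm1-2 it called 13 probe sets, and a fit with the replicate as block called 1. The number of arrays limits the precision.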

Additional observations from a re-analysis of the deposited data

Results flagged for a closer look

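The annotated pseudogene AT3G30610, one of the 6 set beside the members and read by probes of its own, had a negative interaction. The measured effect of ddm1-2 was larger with RDR6 than without it. The interaction was -3.76 (SE 0.23, adjusted p = 0.0249 by limma), with means of 2.48 in the double mutant, 6.13 in ddm1-2, 2.58 in rdr6-15 and 2.47 in Col-0. The locus was picked on its difference of -3.65 in the double mutant minus ddm1-2, which is part of the interaction. Its call in that comparison was lost without either ddm1-2 array or replicate 2 of the double mutant. The interaction with the replicate as block or without 1 array is not given here.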

How the results depend on the processing

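Leaving out 1 array at a time moved the members' median difference to between 7.61 and 8.01 in ddm1-2 minus Col-0, 7.59 and 8.05 in the double minus rdr6-15, -0.094 and 0.26 in the double minus ddm1-2 and 0.13 and 0.49 in rdr6-15 minus Col-0, where 0 to 1 members were called. Quantile normalization, median centring and array weights moved no median by more than the spread between replicates. Neighbours called ranged from 0 to 3 in ddm1-2 minus Col-0, 0 to 4 in the double minus rdr6-15 and 0 to 1 in the double minus ddm1-2 when 1 array was left out, the 4 being without rdr6-15 replicate 2, where 21.7% of all probe sets were called. With the replicate block they were 1, 0 and 0, and with shared probe sets left out 0, 0 and 0, since both called neighbours have shared probe sets. Quantile normalization gave 1 and 0 in the first 2 comparisons, and fitting only the genotypes compared gave 0 in the double minus rdr6-15. The cause of these losses was otherwise not tested. AT2G12250 had an adjusted p of 0.170 to 0.367 in ddm1-2 minus Col-0 without 1 array of either genotype. AT2G13890 in the double minus ddm1-2 had one of 0.0646 to 0.216 without 1 array of Col-0, ddm1-2 or the double. With shared probe sets left out no member remains. Chosen after seeing the data, the following were also run. Of the 6 pseudogenes set beside the members, 1 stayed called lower with the replicate block and 0 to 6 when 1 array was left out. Without rdr6-15 replicate 1, 6 pseudogenes between the members (3 with it) and 34 elsewhere (18 with it) were called higher in the double minus rdr6-15.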
